A study of Mus musculus with 4 samples.

Results

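The MHC class II genes and their regulator were examined in chromatin accessibility data from bone marrow-derived macrophages (BMDMs). The set held 10 named genes of the 55450 genes in the GENCODE vM21 annotation of mm10: H2-Aa, H2-Ab1, H2-Eb1, H2-Eb2, H2-DMa, H2-DMb1, H2-DMb2, H2-Oa, Ciita and Cd74. Every peak that overlapped the gene body or its flanks was taken, with a flank of 10 kb for Ciita and Cd74 and of 5 kb for the others. Peaks that overlapped by at least 1 bp were joined across libraries, which gave 36 regions at these genes of 71243 regions in all. ATAC-seq, in which the Tn5 transposase inserts adapters into open DNA, had been done on WT and H3.3cKO BMDMs with 2 biological replicates each. All 4 cultures were grown from bone marrow in DMEM with FBS and L929-conditioned medium for 6 to 8 days, with no stimulus named in the labels, and the mice were of C57BL/6 background. The WT mice carried the floxed H3f3a fl/fl and H3f3b fl/fl alleles without Cre. The cKO mice carried the same alleles with LysM cre/cre, that is, Cre expressed from the Lyz2 locus, which is active in myeloid cells. The control therefore shares the floxed alleles with the cKO but lacks Cre, and the study describes deletion of H3f3b as complete in some cKO samples and partial in others.

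MHC class II molecules are pairs of an alpha and a beta chain that carry peptides from ingested proteins to the surface of antigen-presenting cells, where helper T cells read them. Their genes share a promoter module, in which the X box binds the RFX complex and CREB family factors and the Y box binds NF-Y, and the coactivator CIITA docks on that module. Resting macrophages express class II weakly, and interferon gamma raises it through IRF1 and an inducible promoter of Ciita.

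The promoter module is shown for the members with an X1 core followed by a Y box and for H2-Aa, which held a Y box with a CRE. RefSeq sequence of build GRCm38.p6 was on hand for 8 annotated starts of 7 members, and there was no entry for H2-Ab1, Ciita or Cd74. The 250 bases before the start are given on the gene's own strand. Capitals mark the X1 box core (AGCAAC), the Y box (ATTGG, or CCAAT on the other strand) and the cyclic AMP response element CRE (TGACGTCA). The 4 sequences lie at chr17:34305617-34305866 (H2-Eb1, plus strand), chr17:34325425-34325674 (H2-Eb2, plus strand), chr17:34092129-34092378 (H2-Oa, plus strand) and chr17:34287824-34288073 (H2-Aa, minus strand).
H2-Eb1: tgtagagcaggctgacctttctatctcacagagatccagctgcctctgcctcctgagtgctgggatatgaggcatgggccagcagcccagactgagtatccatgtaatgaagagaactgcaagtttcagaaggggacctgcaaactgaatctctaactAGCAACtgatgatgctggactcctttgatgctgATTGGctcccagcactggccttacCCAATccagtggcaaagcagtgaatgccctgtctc
H2-Eb2: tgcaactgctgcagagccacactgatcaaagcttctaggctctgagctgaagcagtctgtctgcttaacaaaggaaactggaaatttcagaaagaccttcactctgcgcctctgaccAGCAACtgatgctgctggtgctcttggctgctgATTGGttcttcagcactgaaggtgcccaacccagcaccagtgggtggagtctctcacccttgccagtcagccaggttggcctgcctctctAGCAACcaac
H2-Oa: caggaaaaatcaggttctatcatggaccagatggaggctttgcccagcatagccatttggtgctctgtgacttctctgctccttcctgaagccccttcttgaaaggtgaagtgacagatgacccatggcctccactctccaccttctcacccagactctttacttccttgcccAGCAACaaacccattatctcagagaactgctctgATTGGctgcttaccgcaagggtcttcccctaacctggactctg
H2-Aa: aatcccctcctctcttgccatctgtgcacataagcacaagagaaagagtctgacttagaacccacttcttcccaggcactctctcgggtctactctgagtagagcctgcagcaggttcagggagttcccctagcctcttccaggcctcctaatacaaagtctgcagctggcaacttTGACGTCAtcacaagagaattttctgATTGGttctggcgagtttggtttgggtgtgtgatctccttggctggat
In H2-Eb1 and in H2-Eb2, 27 bases lay between the X1 core and the Y box, and in H2-Oa 28 bases did. An X1 core followed by a Y box 10 to 40 bases on was present in 172 of 32851 RefSeq promoters (0.524%). The Y box alone was common, at 37.4% of all promoters, and was found in all 7 members with an entry. The CRE was present in 1.79% of promoters, and H2-Aa was the member that held it. These are matches of letters on either strand, in windows of 250 bases before and 50 bases after a start, and they do not show that a factor was bound.

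Each library had its own list of peaks, with 55742 and 64939 peaks in WT replicates 1 and 2 and 51955 and 60884 peaks in cKO replicates 1 and 2. A peak's strength is given below as its percentile, the share of peaks in the same list whose area under the significance curve was equal or smaller. The lists ended at an area of 200, so a missing peak lay below that limit and is not shown to be closed chromatin. Of the deleted genes, the peak at the H3f3a start lay at percentiles of 95.9 and 97.2 in WT against 93.4 and 94.1 in cKO, and the stronger H3f3b peak at 94.2 and 95.5 in WT against 87.0 and 81.4 in cKO, so signal at H3f3b was still present in both cKO libraries. The weaker H3f3b peak, over the annotated gene start, was not lower, at 23.7 and 34.3 in WT against 28.7 and 42.5 in cKO. A weak H3f3a peak inside the gene was listed in WT replicates 1 and 2 (5.02 and 19.1) and was missing from the cKO lists. The study placed loxP sites around exon 2 of H3f3a, so the H3f3a start lies outside the floxed exon. Of the marker genes, 7 of 8 macrophage markers had a peak at their start in every library, with Spi1 the exception. The T cell markers had none of 4, and 1, 2, 2 and 1 of 6 B cell markers had one in WT replicates 1 and 2 and cKO replicates 1 and 2. Ms4a1 was the B cell marker listed in all 4 libraries, at percentiles from 3.56 to 35.5, Ebf1 was listed in WT replicate 2 and cKO replicate 1, and Cd79a, Pax5 and Cd22 had no peak. Of 6 dendritic cell markers, which matter here because dendritic cells carry high class II, Flt3, Zbtb46 and Itgax had a peak in all 4 libraries and Xcr1, Cd209a and Clec9a had none. From 1 to 2 of 4 neutrophil markers had one. What other cells contributed to these peaks was not tested.

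The class II genes of BMDMs were marked mostly by weak to middling peaks, and most of these were present in both genotypes. Of the 36 regions, 22 were called in all 4 libraries (61.1%, against 62.9% of all regions). None was gained, meaning called in both cKO and neither WT library, where 3.72% of all regions were. 3 regions were lost, meaning called in the WT libraries and missing from the cKO lists, which is 8.33% of the members' regions against 7.25% of all regions. These lay at Ciita, between H2-DMa and H2-DMb2, and downstream of H2-DMb1. Thus 4 of the 10 members had a lost region in their window, and none had a gained region. Of 21755 protein-coding genes with 5 kb flanks, 13.6% had a lost and 6.93% a gained region. The region between H2-DMa and H2-DMb2 counted for both genes, and Ciita had 10 kb flanks, so the gene shares are not measured alike. The remaining 11 regions had other patterns, and 7 of these were seen in a single library at percentiles from 4.11 to 16.3. H2-Oa had no peak in any library, a state shared by 28.2% of protein-coding genes. The libraries held a peak in 28, 33, 26 and 26 of the regions (WT replicates 1 and 2, then cKO replicates 1 and 2), with median percentiles of 38.2, 38.3, 30.1 and 34.1.

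**Figure D1:**
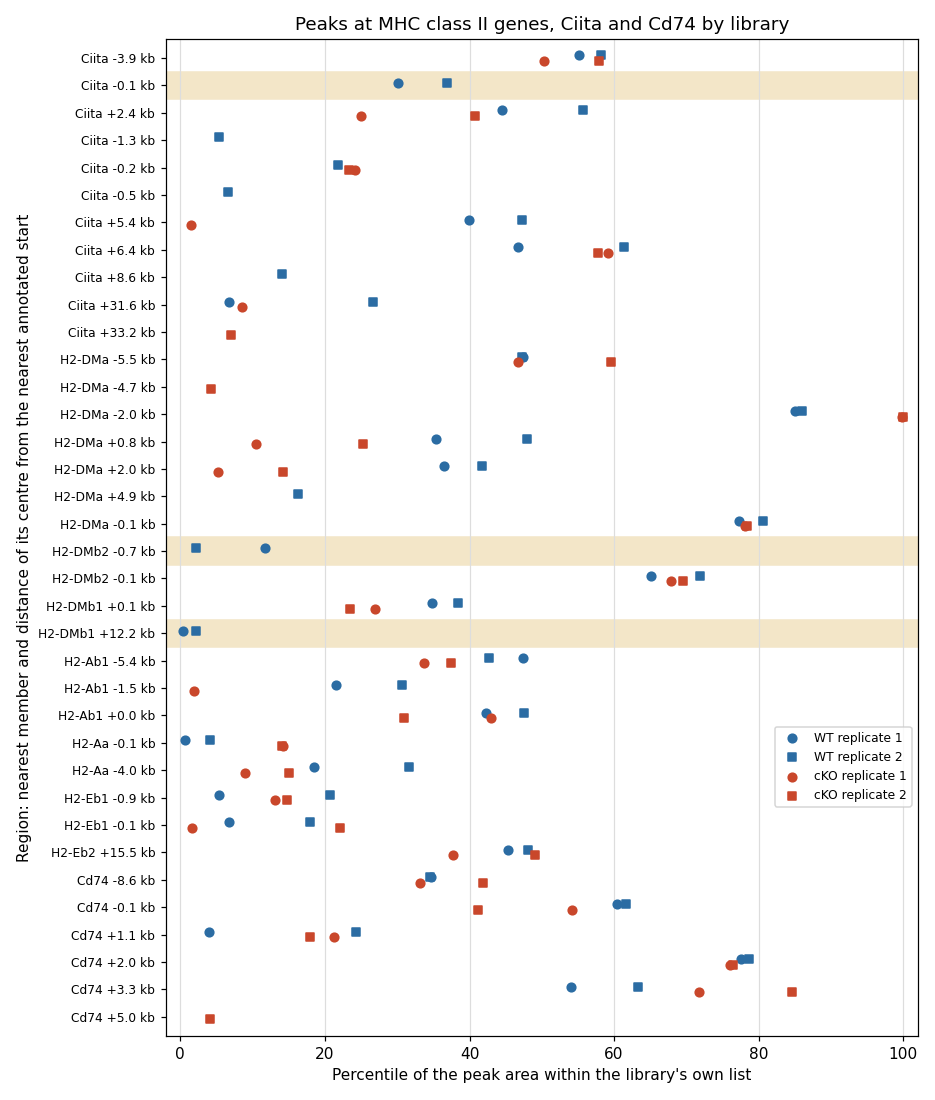
Percentile of the strongest peak of each library (x axis, 0 to 100 within that library's list) in each of the 36 regions (y axis, nearest member and distance of the region's centre from the nearest annotated start). Blue marks WT and red marks cKO, circles replicate 1 and squares replicate 2, and a missing point means no peak. The shaded rows are the 3 lost regions, where the red points are missing.

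The classical chain genes (H2-Aa, H2-Ab1, H2-Eb1 and H2-Eb2) had 8 regions, and a peak was listed in every library at 7 of them. No limma call was made at any of these 7, with adjusted p from 0.120 to 0.977. H2-Aa encodes the I-A alpha chain and spans 34282744 to 34287823 of chromosome 17 on the minus strand (ENSMUSG00000036594.15). The region over its start, at chr17:34287784-34288027, contains the Y box and the CRE printed above. Its percentile was 0.658 and 4.04 in WT against 14.2 and 14.1 in cKO. The genotypes did not overlap there, with both cKO libraries higher, but all 4 values were among the weaker peaks of their lists. The difference was 0.45 ± 0.20 (log2 peak area after quantile normalisation, cKO minus WT, ± SE, n = 2 per genotype) with a limma adjusted p of 0.120, so it did not pass the threshold of 0.05. The other H2-Aa region, upstream at chr17:34291652-34291897, lay the other way, at 18.5 and 31.6 in WT against 8.97 and 15.0 in cKO (-0.35 ± 0.16, limma adjusted p = 0.140).

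H2-Ab1, the I-A beta chain gene (ENSMUSG00000073421.6, chromosome 17, 34257689 to 34269419, plus strand), had 3 regions. The region centred at an annotated start inside the gene, chr17:34263051-34263470, had percentiles of 42.3 and 47.5 in WT against 43.0 and 30.9 in cKO, and the genotypes overlapped. The strongest peak of the gene in WT replicate 1, at chr17:34257605-34257985 where the gene body begins, lay at 47.4 and 42.6 in WT against 33.8 and 37.4 in cKO. Both cKO values were below both WT values at this region, by -0.21 ± 0.19 on the log2 scale, with a limma adjusted p of 0.421. The third, at chr17:34261499-34261863, was seen at 21.5 and 30.7 in WT and at 1.94 in cKO replicate 1, and not in cKO replicate 2. This was the only H2-Ab1 region not called in every library.

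H2-Eb1 encodes the beta chain of I-E (ENSMUSG00000060586.11, chromosome 17, 34305867 to 34316674, plus strand). The region over its start, chr17:34305671-34305920, holds the X1 core and both Y boxes printed above. Its peak was weak and varied as much within a genotype as between them, at 6.73 and 17.9 in WT against 1.61 and 22.1 in cKO. The log2 difference was -0.01 ± 0.20 (limma adjusted p = 0.977). A weak region just upstream, chr17:34304808-34305059, had percentiles of 5.31 and 20.8 in WT against 13.1 and 14.8 in cKO, also overlapping. H2-Eb2, a beta chain gene related to H2-Eb1 (ENSMUSG00000067341.6, chromosome 17, 34325665 to 34341412, plus strand), had no peak at its start, although the X1 core and Y box are spaced there as in H2-Eb1. Its only region lay in an exon near the far end of the gene, chr17:34340989-34341323, at 45.3 and 48.2 in WT against 37.8 and 49.1 in cKO (0.01 ± 0.13, limma adjusted p = 0.962).

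H2-DMa, H2-DMb1 and H2-DMb2 encode the chains of H2-M, which removes the invariant chain fragment CLIP and loads peptide, and H2-Oa encodes a chain of H2-O, which restrains H2-M. All 3 limma calls and both lost regions of the chromosome 17 members lay in the windows of the H2-M genes. H2-DMa (ENSMUSG00000037649.10, 34119541 to 34139101, plus strand) had 9 regions and overlaps the upstream gene Brd2, which encodes a bromodomain protein that binds acetylated histones, so peaks there cannot be given to either gene. The strongest region, chr17:34118656-34122978, runs over Brd2 and ends across the start of the H2-DMa-201 transcript. In both WT libraries it was made of 4 separate peaks, at percentiles of 85.0, 13.8, 79.9 and 76.6 in replicate 1 and 86.0, 31.3, 81.5 and 74.1 in replicate 2. In both cKO libraries a single peak, 4129 and 4323 bp wide, covered the whole stretch at a percentile of 99.9.

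By its strongest peak, this region rose by 2.05 ± 0.06 on the log2 scale in cKO (limma adjusted p = 0.000129). Because a peak's area grows with its width, joining 4 peaks into 1 raises that value. When the areas of all peaks in the region were summed the difference was 0.52 ± 0.05, and for the log2 of the −log10 p-value at the summit, which does not depend on width, it was 0.24 ± 0.05. Both passed the threshold, with limma adjusted p of 0.000125 and 0.000293. Downstream of it, inside H2-DMa, the direction was opposite. The region at chr17:34123522-34123838 lay at 35.3 and 48.0 in WT against 10.4 and 25.3 in cKO, and fell by 0.71 ± 0.15 (limma adjusted p = 0.0115). This call was lost without WT replicate 2 (adjusted p = 0.0802) and without cKO replicate 1 (0.0547), and on the percentile scale (0.0870).

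The next intronic region of H2-DMa, chr17:34124684-34124971, lay at 36.5 and 41.8 in WT against 5.19 and 14.2 in cKO, and fell by 0.89 ± 0.16 (limma adjusted p = 0.00627). Its call held in each of the 11 alternative analyses that could be fitted to it, with adjusted p up to 0.0460. The region was missing from the fits with the stricter threshold, with equal list lengths and without the weakest regions. Its sequence is shown because no other decrease kept its call in every fit made for it. The bases are from RefSeq GRCm38.p6 on the plus strand, with the E box (CACGTG) in capitals. E boxes lay within 100 bp of the summit in 4.63% of all regions.
H2-DMa intron: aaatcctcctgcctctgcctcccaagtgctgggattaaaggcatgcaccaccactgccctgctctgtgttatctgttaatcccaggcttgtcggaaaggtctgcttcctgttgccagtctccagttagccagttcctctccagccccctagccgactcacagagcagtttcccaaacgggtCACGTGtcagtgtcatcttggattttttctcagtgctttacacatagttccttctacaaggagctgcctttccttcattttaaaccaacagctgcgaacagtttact
At the annotated start of H2-DMa-205, chr17:34135271-34135879, the peak was strong and alike in all libraries, at 77.3 and 80.6 in WT against 78.1 and 78.3 in cKO (0.03 ± 0.08, limma adjusted p = 0.777). The window of H2-DMa therefore held called regions of both directions, the higher one shared with Brd2, and a downstream start where the genotypes overlapped.

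At H2-DMb2 (ENSMUSG00000037548.15, 34143307 to 34151555, plus strand), the start of H2-DMb2-203 had a peak at chr17:34142989-34143407, at 65.1 and 71.9 in WT against 67.9 and 69.6 in cKO (0.09 ± 0.09, limma adjusted p = 0.458). The genotypes overlapped at this start. A small region just upstream, chr17:34142486-34142779, was lost, with WT percentiles of 11.7 and 2.17 and no peak in either cKO library. At H2-DMb1 (ENSMUSG00000079547.4, 34153072 to 34160230, plus strand), the region over the start, chr17:34152996-34153383, holds a Y box and an AP-1 match (TGANTCA). It lay at 34.8 and 38.3 in WT against 26.9 and 23.5 in cKO, and the genotypes did not overlap, but the difference did not pass the test (-0.28 ± 0.21, limma adjusted p = 0.315). The lost region downstream of H2-DMb1, chr17:34165122-34165337, was among the weakest peaks of the WT lists, at 0.416 and 2.23.

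Cd74 encodes the invariant chain, which fills the groove of newly made class II molecules and takes them to the endosome. The gene (ENSMUSG00000024610.15, chromosome 18, 60803848 to 60812652, plus strand) had 6 regions, 5 of them in all 4 libraries. The region over its start, chr18:60803527-60804032, lay at 60.5 and 61.6 in WT against 54.1 and 41.2 in cKO. Both cKO values were below both WT values, but cKO replicates also differed from each other, and the difference did not pass the test (-0.40 ± 0.24, limma adjusted p = 0.222). The strongest WT region, in an intron at chr18:60805534-60806234, hardly moved, at 77.6 and 78.7 in WT against 76.0 and 76.5 in cKO (-0.02 ± 0.08, limma adjusted p = 0.891).

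The neighbouring Cd74 intron region, chr18:60806597-60807756, rose in cKO. Its strongest peak was at 54.1 and 63.3 in WT against 71.7 and 84.6 in cKO, a difference of 0.93 ± 0.15 (limma adjusted p = 0.00461). The region comprised 1, 2, 2 and 1 peaks in WT replicates 1 and 2 and cKO replicates 1 and 2. In cKO replicate 2 a single peak 1159 bp wide spanned the stretch that 2 peaks covered in WT replicate 2. With the areas summed the difference was 0.99 ± 0.13, and at the summit it was 0.21 ± 0.05, with limma adjusted p of 0.000516 and 0.00114. Within 100 bp of its summit the region held a Y box and a CRE, and a CRE was present in 0.880% of all regions and in 4 of the 36 at these genes.

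**Figure D2:**
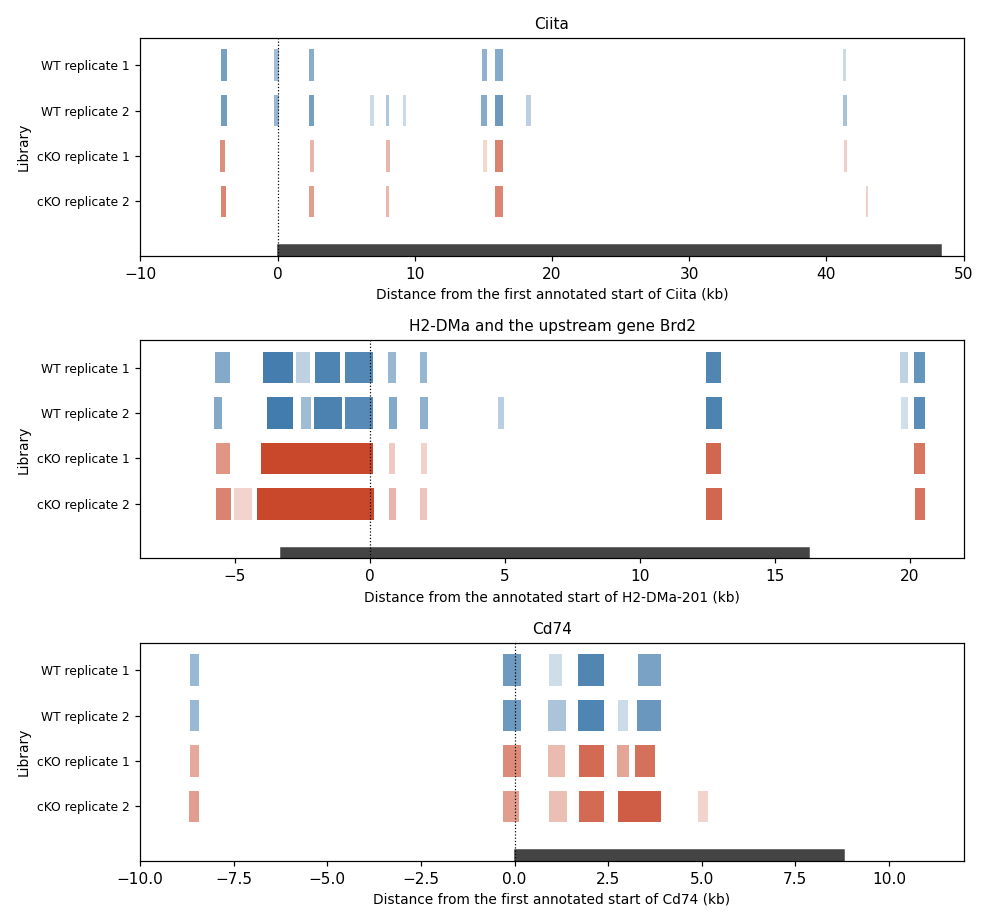
Peaks of each library (rows) along Ciita, H2-DMa with the upstream Brd2, and Cd74 (x axis, distance in kb from the named start; dark bar, gene body; dotted line, the start). Blue marks WT and red marks cKO, and deeper colour marks a higher percentile. At H2-DMa, 4 peaks in each WT library stand where each cKO library has 1 peak, and at Ciita the peak on the dotted line is present in WT only.

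Ciita, the coactivator on which class II transcription depends, is transcribed from alternative promoters that are used in dendritic cells, in B cells and after interferon gamma. The gene (ENSMUSG00000022504.10, chromosome 16, 10480059 to 10528418, plus strand) had 11 regions, and only 3 were called in all 4 libraries. No Ciita peak passed a percentile of 61.4 in any library. At the first annotated start, that of Ciita-205, the region chr16:10479781-10480194 was lost, at 30.05 and 36.9 in WT and with no peak in cKO. This was the strongest of the 3 lost regions, and it stayed lost when the lists were cut to equal length and when each library was left out in turn. No peak reached the median area of its list there in any library. At the downstream start of Ciita-201, chr16:10487936-10488244, a peak was called at 21.8 in WT replicate 2 and at 24.1 and 23.4 in cKO, so it did not follow the pattern of the first start.

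Inside Ciita, the intron region chr16:10482318-10482721 lay at 44.5 and 55.7 in WT against 25.02 and 40.8 in cKO, and fell by 0.49 ± 0.14 (limma adjusted p = 0.0313). The call was lost without WT replicate 1, WT replicate 2 or cKO replicate 1 (adjusted p = 0.0929, 0.172 and 0.124) and on the percentile scale (0.172). Farther in, chr16:10494916-10495356 was seen at 39.99 and 47.3 in WT, at 1.43 in cKO replicate 1 and not in cKO replicate 2. The adjacent region, chr16:10495875-10496497, did not share this difference, at 46.7 and 61.4 in WT against 59.1 and 57.8 in cKO (0.25 ± 0.15, limma adjusted p = 0.230). The region upstream of the gene, chr16:10475851-10476410, was likewise overlapping, at 55.2 and 58.1 in WT against 50.3 and 57.9 in cKO (0.02 ± 0.11, limma adjusted p = 0.901). The other Ciita regions were weak, at 26.6 or below, and 4 of them were seen in a single library.

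Over all members, limma called 2 of the 22 shared regions higher in cKO (9.09%, against 18.3% of all 44820 shared regions) and 3 lower (13.6%, against 18.7%). The median log2 difference of the members was 0.01, against 0.00 for all shared regions. Quantile normalisation sets the libraries to a common distribution, so the value for all regions is near 0 largely by the method. On the percentile scale the median differences were -1.32 for the members and -1.10 for all shared regions. The percentiles did not overlap between genotypes in 11 regions: cKO was above WT in 3 (13.6%, against 22.2% of all shared regions), and WT was above cKO in 8 (36.4%, against 35.1%). Each of these shares of members was below or close to that of all regions. Of 11 regions centred within the promoter window of a member (1 kb before to 100 bp after a start), 7 were shared and without a limma call. Of the others, 2 were lost, at Ciita and H2-DMb2, and 2 had other patterns. The members held 31 and 37 peaks in WT against 27 and 26 in cKO, or 34.0 ± 4.24 and 26.5 ± 0.707 (mean ± SD, n = 2). The difference of -7.5 peaks gave p = 0.333 in a two-sided exact permutation test, the smallest p that 2 against 2 libraries allow. Without the region over Brd2 and H2-DMa, where peaks joined, the numbers were 27 and 33 in WT against 26 and 25 in cKO. The peaks covered 13.57 and 15.18 kb in WT against 13.37 and 14.1 kb in cKO, which did not separate the genotypes (exact permutation test, p = 0.667).

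**Figure D3:**
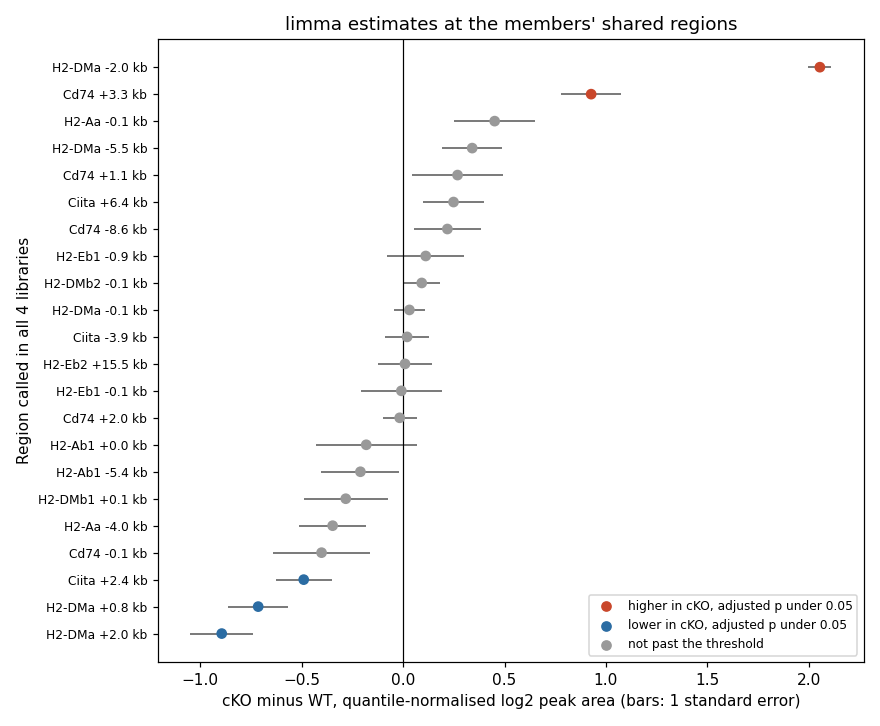
Difference in quantile-normalised log2 peak area, cKO minus WT (x axis; points are limma estimates from 2 libraries per genotype, bars 1 standard error), for the 22 regions called in all 4 libraries (y axis, nearest member and distance to the nearest start). Red and blue points passed an adjusted p of 0.05, and the largest estimate is the region over Brd2 and H2-DMa in which WT peaks were joined in cKO.

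The chromosome 17 members lie in a block of 259.1 kb, from 34087340 to 34346412, which held 30 regions. Of these, 20 were called in all 4 libraries, 0 were gained and 2 were lost. Between the members, the promoter of Tap1, a peptide transporter of the class I pathway, had a strong peak at 78.7 and 81.1 in WT against 84.9 and 85.8 in cKO. An intron of H2-Ob, which encodes the partner chain of H2-Oa, had a peak at 32.2 and 45.6 in WT, at 2.37 in cKO replicate 2 and none in cKO replicate 1.

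Another 32 genes of the class II pathway held 183 regions within 5 kb of their gene bodies, of which 2 also lay in a member's window. Of these, 8 were gained (4.37%) and 14 lost (7.65%), and of 109 shared regions limma called 21 higher (19.3%) and 20 lower (18.3%), near the shares of all regions given above. Regulators of the class II genes, 17 genes with 90 regions, had 10 lost (11.1%) and 3 gained regions (3.33%), against 7.25% and 3.72% of all regions. Of 49 shared regions 7 were higher (14.3%) and 9 lower (18.4%), against 18.3% and 18.7% of all. Irf8, a myeloid transcription factor, had 3 lost regions, the strongest at 57.8 and 65.8 in WT. The region over the Irf8 start lay at 80.0 and 83.8 in WT against 68.4 and 72.2 in cKO, and fell by 0.46 ± 0.07 (limma adjusted p = 0.00429). At Ifngr2, a chain of the interferon gamma receptor, 3 regions were lower, among them that over its start (-0.53 ± 0.07, limma adjusted p = 0.0025). Socs1, an inhibitor of the receptor's kinases, had its start region at 90.3 and 89.4 in WT against 96.1 and 97.2 in cKO, which rose by 0.67 ± 0.07 (limma adjusted p = 0.00136). Creb1, Nfya and Nfyc, which encode factors of the X and Y boxes, had 1, 1 and 2 higher regions and none lower, and Creb1 also had 2 lost regions. The other listed factors of these boxes had no higher or lower region, and Rfxap, of the RFX complex, had 1 gained region.

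The processing genes, 9 genes with 64 regions, had 5 gained (7.81%) and 2 lost regions (3.12%), against 3.72% and 7.25% of all regions. Of 40 shared regions 11 were higher (27.5%) and 4 lower (10.0%), against 18.3% and 18.7% of all. 4 of the gained regions were at Lgmn, an endosomal protease, with cKO percentiles from 22.2 to 64.2. At Ifi30, a reductase that unfolds antigens in the endosome, the start region lay at 47.7 and 57.0 in WT against 63.6 and 71.4 in cKO (0.69 ± 0.10, limma adjusted p = 0.00333). Ifi30 also had another higher region, and a lost region at 13.9 and 30.0 in WT. The proteases Ctsb and Ctsd had wide higher regions at percentiles of 97.9 or above in cKO, against 83.3 to 97.5 in WT. Whether peaks were joined in these regions, as over Brd2 and H2-DMa, was not tested. Ctsd also had 2 lower regions and 1 lost region. March1, a ubiquitin ligase that removes class II from the surface, had 4 higher regions and 1 lower region. The surface partners, 5 genes with 27 regions, had 2 lost regions (7.41%), and 3 higher (16.7%) and 7 lower (38.9%) of 18 shared regions, against 18.7% lower of all shared regions. The lower regions were at Cd40, Cd80, Cd83 and Cd86, which encode co-stimulatory or maturation proteins. At the Cd40 start the values were 81.8 and 84.4 in WT against 57.9 and 69.9 in cKO (-0.76 ± 0.10, limma adjusted p = 0.00222). At the Cd83 start they were 60.4 and 61.1 in WT against 9.22 and 38.5 in cKO (-1.19 ± 0.22, limma adjusted p = 0.00748). Icosl had 2 higher regions and Cd86 also had 1 (0.49 ± 0.08, limma adjusted p = 0.00423), so the 5 surface genes did not move one way. The pseudogene H2-Ea-ps had 2 regions and no call.

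**Figure D4:**
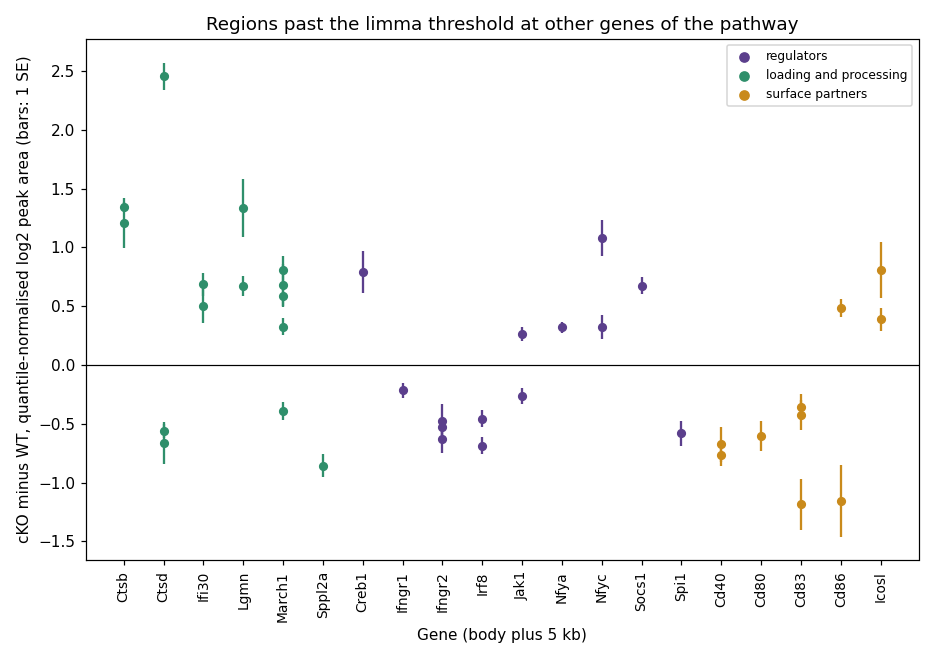
Difference in quantile-normalised log2 peak area, cKO minus WT (y axis; points are limma estimates, bars 1 standard error), for each shared region past an adjusted p of 0.05 at the other genes of the pathway (x axis), with 1 gene left out. Colours mark the regulators, the loading and processing genes, and the surface partners. Points above 0 were higher in cKO, as at Socs1 and Ifi30, and points below 0 were lower, as at Irf8, Ifngr2, Cd40 and Cd83.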

How the data were processed

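Chromatin accessibility was measured by ATAC-seq in 4 BMDM libraries, grouped by genotype from the sample labels. Per the labels, the authors aligned reads to mm10 with Bowtie2 2.5.1 and called peaks in each library with Genrich. Read filters, removal of duplicates, the Tn5 shift and the Genrich version were not given in the sources used here. The main deposited value was the peak signal, the area under the curve of significance. The deposited −log10 p-value at the summit was an alternative. The deposited score, the area scaled to length and capped, had reached its maximum in 82.6% to 87.2% of a list's peaks and was not used for tests, and the summit offset, deposited in base pairs, placed the motif windows. Read depth was not analysed here, so no counting interval is given and areas depend on an unknown depth. The study tested read counts with DiffBind, and read counts were not analysed here.

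Peaks were joined and ranked in Python 3.11.15 (pandas 2.3.3, numpy 2.4.6). A library's value in a region was its highest peak. Regions called in all 4 libraries (44820) were fitted with limma 3.58.1 (R 4.3.3, lmFit, eBayes with trend) on quantile-normalised log2 area, with genotype as the only term and Benjamini-Hochberg adjustment over all of them. The fit was tested on simulated data with known differences. An exact permutation test, two-sided and with all 6 ways to assign the labels, was used for the number of peaks and the covered length. Nothing but the labels says whether replicates were separate animals, so p-values measure the spread between these libraries. All members were named, with values for regions that were lost or called, at starts, or strongest. Other pathway genes were named if they held a lost, gained or called region, and results for some listed genes are not reported here by name. The members, lists and markers were chosen with earlier results of these data known. Alternatives were a stricter peak threshold, equal list lengths, 50% cover, other flanks, percentiles, summed areas, summit values, median centring, omission of weak regions, no intensity trend, a replicate block, and leaving out each library. Sequences came from RefSeq, build GRCm38.p6.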

Additional observations from a re-analysis of the deposited data

How the results depend on the processing

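The 2 increases, at H2-DMa with Brd2 and at the Cd74 intron, passed the threshold in all 14 alternative fits each, whereas the number of decreases depended on the settings. It was 0 with the stricter threshold, which leaves out the regions themselves, and 1 on the percentile scale and 1 without the weakest regions. Leaving out 1 library gave 1 to 4 decreases, with 1 when WT replicate 2 was left out. Lost regions numbered 0 with the stricter threshold, 1 with equal list lengths and 1 with no flank, and 3 to 7 when 1 library was left out, with 7 without WT replicate 1 and 6 without cKO replicate 1. Gained regions numbered 1 with equal list lengths, and 0 to 3 when 1 library was left out, with 1 without WT replicate 2 and 3 without cKO replicate 1. The difference in peaks stayed negative, from -10.5 to -4.5 when 1 library was left out. It shrank to -2 with the stricter threshold and to -2.5 with equal list lengths. With equal list lengths the exact permutation test gave p = 0.667, so the genotypes were no longer separated. The covered length, -0.647 kb in cKO, reversed to 1.40 kb with the stricter threshold and to 0.411 kb with equal list lengths, and ranged from -1.45 to 0.157 kb when 1 library was left out, with the positive value without WT replicate 2. The cause of these shifts was not tested.

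Replicate numbers were not taken to pair the libraries, since the deviations of same-numbered libraries correlated at r = 0.116 over 44820 regions and there were only 2 pairs. With the replicate block the members still had 2 increases and 3 decreases, and the differences in peaks (-7.5) and covered length (-0.647 kb) were the same by construction. Over all shared regions, 8210 were higher and 8400 lower in the fit reported above. The counts were 2548 and 5077 on the percentile scale (33.4% higher), 11419 and 6948 after median centring (62.2% higher, against 49.4%), 3750 and 3987 with the stricter threshold, 5291 and 4868 without WT replicate 1, and 5462 and 5149 without WT replicate 2. With 2 libraries per genotype and no read depth, a peak near the area limit of 200 may be listed in 1 library and missing in another at a like level.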

Other observations

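Values that belong to no comparison concern motifs near the summits. Within 100 bp of the summit of the strongest peak, a Y box lay in 16 of the 36 regions at the members and in 23.4% of all 71243 regions. An AP-1 match lay in 2 of the 36, against 16.7% of all regions, and a PU.1 match (GAGGAAGT) in 2, against 11.01%. No such window at the members held the interferon-stimulated response element searched for, which 3.90% of all windows held. The median GC content of these windows was 49.0% at the members and 48.8% in all regions. These shares were not tested, and neighbouring regions of 1 gene are not independent.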
